A study of Polistes metricus with 16 samples.

Results

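RNA from 16 heads of Polistes metricus, a paper wasp, each from 1 female larva, was sequenced, and 80 transcripts are described that separated laboratory from field larvae most widely. All larvae were in the fifth larval instar. For each transcript the level was log2(CPM + 0.5), where CPM is the count divided by the library's scaled total and multiplied by 1000000, and the gap was the lowest level among the 8 laboratory larvae minus the highest level among the 8 field larvae. The 80 transcripts with the largest gap were kept, out of 29445 transcripts with a mean of 0.5 CPM or more and 74517 in the whole table. The members were thus chosen by their measured level in laboratory against field larvae, which is given below as a description with no test. The choice did not use the labels of diet within the laboratory or of season within the field. It is not independent of those differences, because the gap favours a small spread within each side. Small diet and season differences among the members are thus partly built in.

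Both laboratory groups came from nests collected in North Carolina in the late spring of 2009 and reared in the laboratory. There, 4 larvae came from ad libitum nests, given a worm every 1 day, and 4 from restricted nests, given a worm every 3 days. Both field groups came from a site in Iowa in 2010. In the field, 4 worker-reared larvae, on the path to becoming queens, were taken in late summer, and 4 foundress-reared larvae, on the path to becoming workers, in late spring. Rearing in the laboratory or the field, the year, the place and the population changed together and cannot be told apart, and neither can season and rearing caste. The labels do not say whether larvae of a group shared a nest, so a p-value here reflects only how far these larvae differed, which nest mates would understate.

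Paper wasp colonies are founded by overwintered females, and the food a larva receives is known to bias its caste. A larval head holds the brain, the mouthparts with their muscles, and cuticle, and RNA from all of these enters 1 library. In such bulk samples, fewer cells of a type and less RNA per cell cannot be told apart. Identifiers came without gene names, so no transcript is given a function, and the labelled tissue was not checked against marker genes. An identifier names an assembled transcript, and several may come from one gene.

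Totals ran from 29048017 to 33561419 counts in the laboratory libraries and from 28359372 to 37626473 counts in the field libraries. One laboratory library, restricted replicate 4, stood apart. Without it the diet comparison called 3016 transcripts of the whole table, against 0 with it. The edgeR diet calls, fitted signs, median fold changes and named differences are therefore given with and without it. The remaining diet counts, the absolute medians and the other test methods are given with it included, unless stated otherwise.

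Separation of the 2 sides was rare. The lowest laboratory larva lay above the highest field larva in 91 of 29445 transcripts (0.309%), and the 80 members are the widest of these. The opposite, every field larva above every laboratory larva, held for 58 transcripts (0.197%). The gap among members had a median of 0.219 on the log2 scale and ran from 0.027 to 2.928, with 6 members at 1 or more and 23 under 0.1. At the edge, PmetTSAr1.1-013422, the last transcript kept, had a lowest laboratory level of 19.8 CPM against a highest field level of 19.5 CPM. The first transcript left out, PmetTSAr1.1-001994, had a lowest laboratory level of 121 CPM against a highest field level of 119 CPM. The boundary of the set thus lies among transcripts whose laboratory and field larvae almost touch. Scaling factors ran from 0.65 to 1.35 between libraries, and with unscaled library totals the same rule kept 47 of the 80.

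Across the 80 members, the laboratory mean level exceeded the field mean by a median of 1.305 on the log2 scale (0.31 to 5.66), where the median over all 29445 transcripts was -0.005. Taken as a ratio of mean CPM, laboratory over field, 16 members had 10-fold or more, 17 had 4-fold to 10-fold, 27 had 2-fold to 4-fold and 20 less than 2-fold. Most members were of moderate abundance. Their mean over 16 larvae had a median of 5.223 CPM, against 4.54 CPM for all 29445 transcripts. In 21 members every laboratory larva had at least 10 CPM, and in 5 every laboratory larva had at least 100 CPM. In 19 members no field larva reached 1 CPM.

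**Figure D1:**
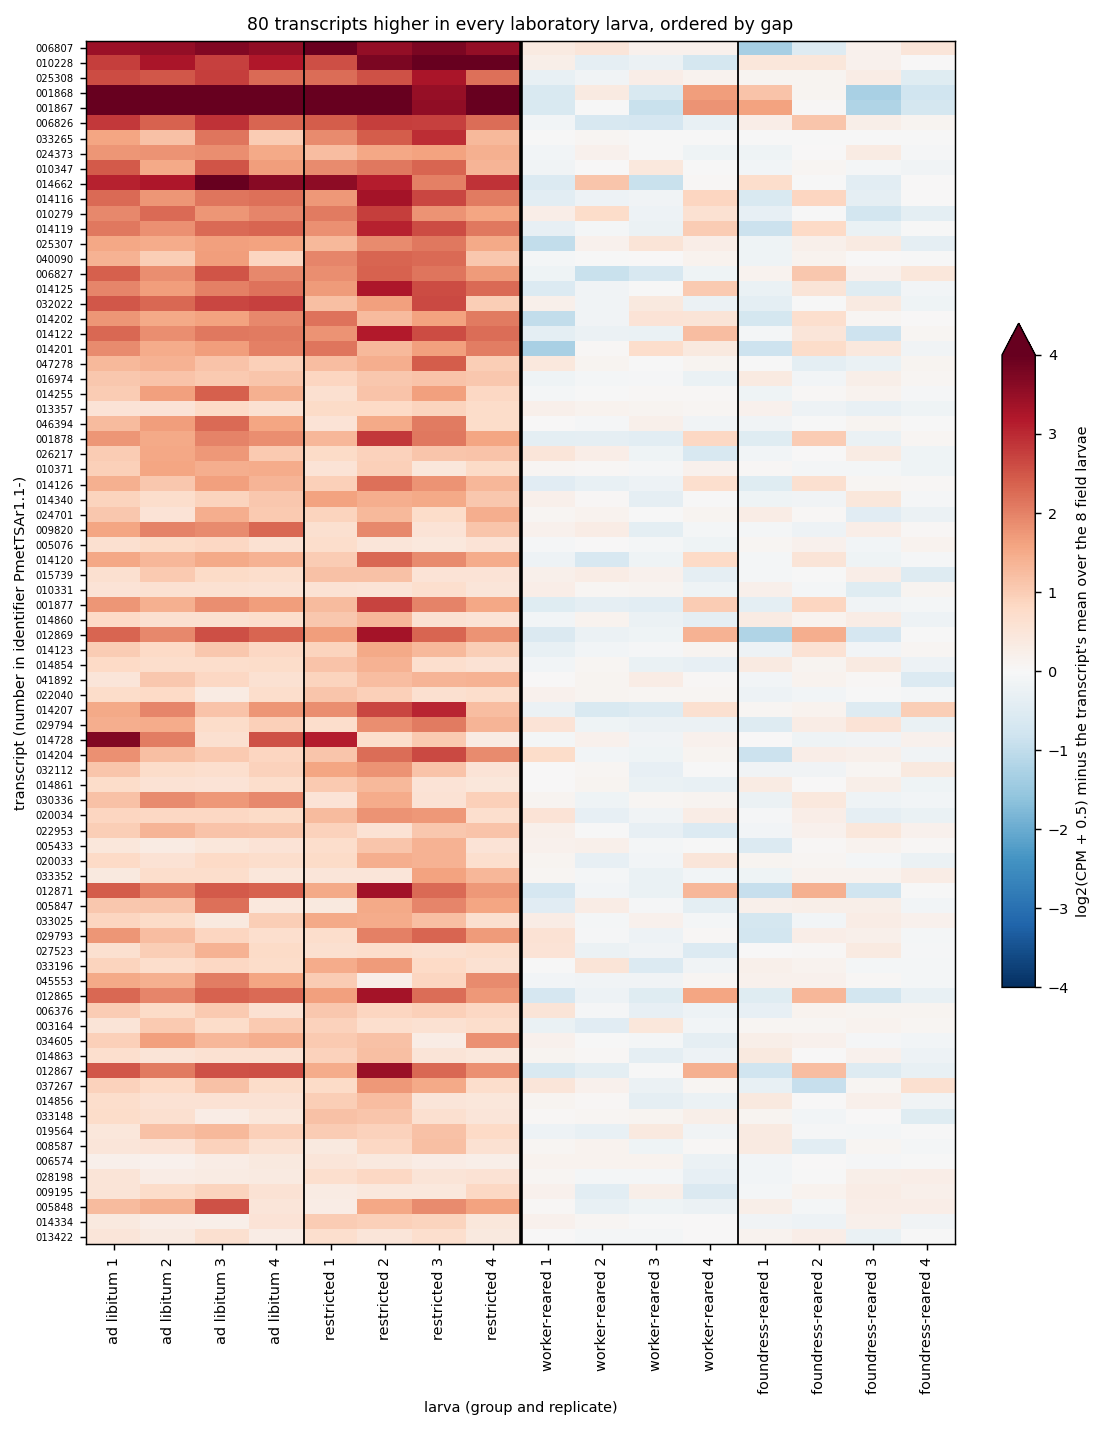
Level of the 80 members in each of the 16 larvae, as log2(CPM + 0.5) minus the transcript's mean over the 8 field larvae, with members ordered from the widest gap (top) to the narrowest. The 8 laboratory columns on the left are red throughout because this difference chose the members. The laboratory mean of a member lies 0.31 to 5.66 above its field mean, and the colour scale ends below the largest differences.

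PmetTSAr1.1-006807 had the widest gap, 2.93 on the log2 scale. Its level was 26.2, 28.2, 31.7 and 28.5 CPM in ad libitum larvae and 37.9, 27.9, 33.3 and 27.8 CPM in restricted larvae. In the field it was 2.66, 3, 2.32 and 2.31 CPM in worker-reared larvae and 0.49, 1.24, 2.3 and 2.96 CPM in foundress-reared larvae. The laboratory larvae were tightly grouped, at 30.2 ± 3.88 CPM against 2.16 ± 0.87 CPM in the field (SD, n = 8 each), and foundress-reared replicate 1 was the lowest of all 16.

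PmetTSAr1.1-010228 came next, with a gap of 2.15. It measured 5.68, 8.2, 5.52 and 7.9 CPM in ad libitum larvae and 4.97, 11.9, 24 and 14.8 CPM in restricted larvae. No field larva exceeded 0.736 CPM, and the lowest, worker-reared replicate 4, had 0.055 CPM. The restricted larvae spanned the whole ad libitum range and went beyond it at both ends.

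The pair PmetTSAr1.1-001867 and PmetTSAr1.1-001868 combined a high laboratory level with the widest spread among laboratory larvae of all 80 members. PmetTSAr1.1-001868 had 382, 152, 633 and 56.1 CPM in ad libitum larvae and 117, 105, 26.2 and 59.8 CPM in restricted larvae. The 4 worker-reared larvae had 1.06, 2.56, 1.05 and 7.02 CPM, and the 4 foundress-reared larvae 4.76, 2.05, 0.472 and 0.864 CPM. Its mean was 77.2-fold higher in the laboratory (191 ± 210 CPM in laboratory against 2.48 ± 2.29 CPM in field larvae, SD, n = 8 each), and laboratory larvae differed among themselves by a standard deviation of 1.49 on the log2 scale. PmetTSAr1.1-001867 followed it closely, with 188 ± 195 CPM in the laboratory and 3.08 ± 3.21 CPM in the field.

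PmetTSAr1.1-025308 and PmetTSAr1.1-025307 also carry consecutive numbers. PmetTSAr1.1-025308 had 4.62, 4.19, 5.19 and 3.52 CPM in ad libitum larvae and 3.4, 4.32, 7.52 and 3.33 CPM in restricted larvae, against 0.091 to 0.531 CPM in the field. PmetTSAr1.1-025307 had 2.19 to 4.25 CPM in the laboratory and 0.0573 to 1.09 CPM in the field. Restricted replicate 3 was the highest of the 16 larvae for both.

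Some members were close to undetected in the field. In 8 members at least 1 field library had no count, and no member had 0 counts in any laboratory library. PmetTSAr1.1-033265 was the only member with 0 counts in 6 or more field libraries. It had 0.99, 0.645, 1.73 and 0.521 CPM in ad libitum larvae and 1.35, 2.18, 3.36 and 0.748 CPM in restricted larvae. In the field a single count was found, in worker-reared replicate 2, and a count of 0 in a library allows up to 3. The 357 laboratory counts against 1 field count gave a ratio of 356 per scaled library total, with an exact 95% interval of 63.5 to 14100. This interval gives the counting precision of the ratio and no test, since the member was chosen on that difference and larvae vary beyond counting error.

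The members with the highest mean levels, PmetTSAr1.1-014861 and PmetTSAr1.1-014860, had small ratios. PmetTSAr1.1-014861 had 559, 493, 488 and 542 CPM in ad libitum larvae and 694, 828, 488 and 457 CPM in restricted larvae. Worker-reared larvae had 339, 364, 278 and 270 CPM, and foundress-reared larvae 418, 339, 394 and 297 CPM. The lowest laboratory larva, restricted replicate 4, thus stood close above the highest field larva, foundress-reared replicate 1. PmetTSAr1.1-014860 had 393 ± 82 CPM in the laboratory and 226 ± 39.7 CPM in the field (SD, n = 8 each), a ratio of 1.74.

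**Figure D2:**
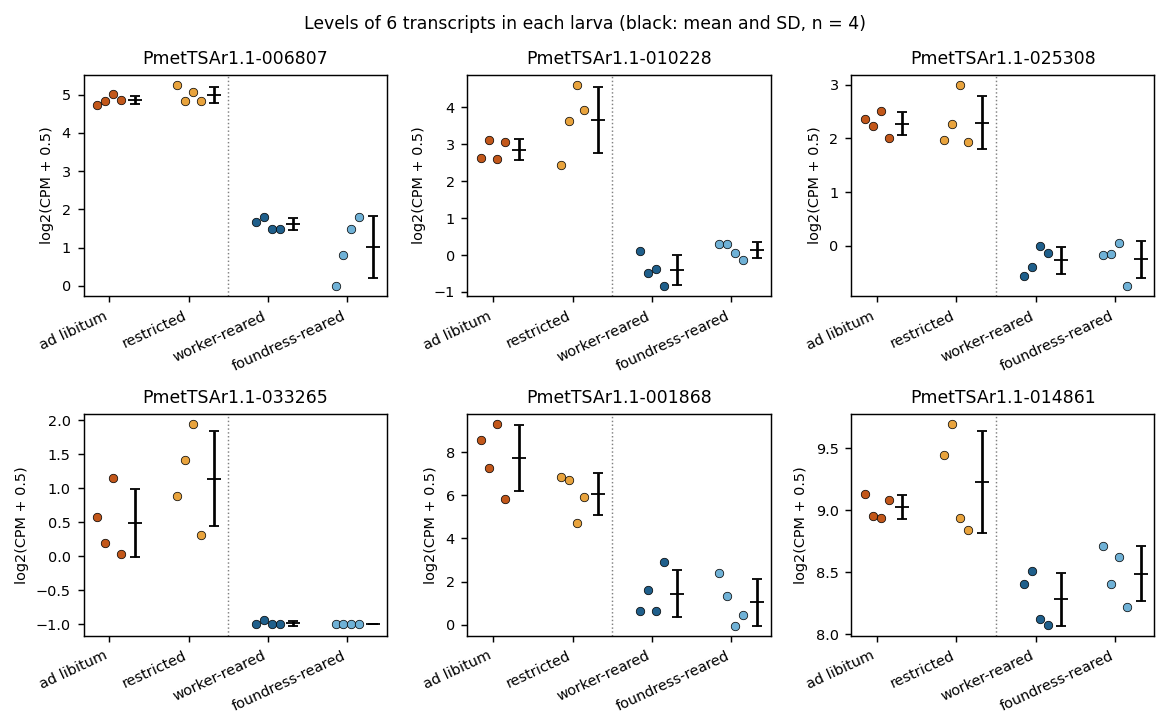
Levels of 6 members as log2(CPM + 0.5) in each larva, by group, with the mean and standard deviation of 4 larvae in black beside the points. PmetTSAr1.1-006807 is tight in the laboratory, PmetTSAr1.1-001868 is spread by a standard deviation of 1.49 among the 8 laboratory larvae, and PmetTSAr1.1-033265 lies at the level of no counts in all field larvae but worker-reared replicate 2.

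The spread within each side also varied between members, though the rule favours a small one. Among laboratory larvae the standard deviation of the log2 level had a median of 0.386 over members, against 0.339 over all 29445 transcripts, and among field larvae 0.279 over members against 0.32 over all. Beside the pair described above, 2 examples were picked after their values were seen. PmetTSAr1.1-010331 stayed between 3.67 and 4.19 CPM in the 8 laboratory larvae and between 1.62 and 3.04 CPM in the field. PmetTSAr1.1-014728 ranged from 0.317 CPM in restricted replicate 4 to 7.86 CPM in ad libitum replicate 1, and from 0.0732 to 0.233 CPM in the field.

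Single larvae set the gap unevenly. Restricted replicate 1 was the lowest laboratory larva for 24 members and restricted replicate 4 for 17, and the other 6 laboratory larvae for 4 to 8 each. At the upper end, restricted replicate 2 was the highest laboratory larva for 26 members, ad libitum replicate 3 for 17 and restricted replicate 3 for 14. Restricted larvae thus supplied the lowest laboratory value of 53 members and the highest of 55, and no such count over all transcripts is given. Of the 26 members highest in restricted replicate 2, 13 belong to 1 group of co-varying members and 5 to another, both described below. In the field, worker-reared replicate 4 was the highest larva for 15 members, and the other 7 for 6 to 11 each. The summed level of all members ran from 2290 to 3440 CPM in ad libitum, 2060 to 3430 CPM in restricted, 999 to 1250 CPM in worker-reared and 1060 to 1440 CPM in foundress-reared larvae.

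Many members sat beside each other in the identifier order. In the whole table the identifier number follows abundance (Spearman -0.759 across 29445 transcripts with mean CPM of 0.5 or more), so neighbours tend to be alike in level, with exceptions. Of the 80 members, 24 formed 12 pairs of consecutive numbers, and 36 formed 11 runs when steps of up to 10 were allowed. The numbers from 14000 to 14999, a range picked after the numbers were seen, held 21 members (26.2%) but 2.35% of the 29445 transcripts. Levels less their group mean, correlated over the 16 larvae, exceeded r = 0.9 in 7 of the 12 consecutive member pairs. Over all 24212 consecutive pairs the share was 5.24%. Members at most 10 apart exceeded it in 31 of 54 pairs, and members farther apart in 40 of 3106 (1.29%). Pairs within a run share members, so they are not independent. No share over all transcripts at most 10 apart is given. These correlations share the library scaling, and reads shared by near-identical transcripts may be counted in each.

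Linking members with r above 0.9 gave 6 groups that held 27 members, and 53 members stayed alone. These groups were formed from the values and are described with no test. The group of 13 joined 3 places in the identifier order. It held PmetTSAr1.1-001877 and PmetTSAr1.1-001878, 4 members between PmetTSAr1.1-012865 and PmetTSAr1.1-012871, and 7 between PmetTSAr1.1-014116 and PmetTSAr1.1-014126. Pairwise r within it ran from 0.759 upward with a median of 0.932, and it supplied 38 of the 40 distant pairs above 0.9. Its median member had 8.65, 7.42, 9.91 and 8 CPM in ad libitum larvae and 5.88, 14.9, 11.2 and 8.11 CPM in restricted larvae. Worker-reared larvae had 1.17, 1.71, 1.82 and 4.9 CPM, and foundress-reared larvae 0.883, 4.72, 1.15 and 2.09 CPM. All 13 were highest in restricted replicate 2, 11 were lowest among laboratory larvae in restricted replicate 1, and in all 13 worker-reared replicate 4 and foundress-reared replicate 2 were the top field larvae. Ratios of mean CPM, laboratory over field, lay between 2.29 and 6.76.

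A second group, 5 members between PmetTSAr1.1-014854 and PmetTSAr1.1-014863, carried from 42.4% to 84.8% of the summed member level of a library. Its median member had 310, 285, 286 and 293 CPM in ad libitum larvae and 388, 465, 279 and 262 CPM in restricted larvae, against 164, 188, 147 and 139 CPM in worker-reared and 227, 191, 226 and 152 CPM in foundress-reared larvae. All 5 were highest in restricted replicate 2. Pairwise r was 0.919 or more, and ratios lay between 1.62 and 1.79. The other 5 identifiers in that span differed by -0.07 to 0.62 on the log2 scale, laboratory minus field, and were not members.

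The remaining groups were small. PmetTSAr1.1-014204, PmetTSAr1.1-029793 and PmetTSAr1.1-029794 formed one, in which the median member ranged from 3.02 to 7 CPM in ad libitum and from 3.14 to 10.8 CPM in restricted larvae, and from 0.834 to 2.81 CPM in the field. The pair PmetTSAr1.1-014201 and PmetTSAr1.1-014202 (r = 0.967) ran opposite to the group of 13 at restricted replicate 2. Its median was lowest there among laboratory larvae, at 8.24 CPM, and highest in restricted replicate 1, at 15.6 CPM. Non-members also lay inside the spans. Between PmetTSAr1.1-014116 and PmetTSAr1.1-014126 the other 4 transcripts differed by 0 to 0.93 (log2, laboratory minus field), and between PmetTSAr1.1-012865 and PmetTSAr1.1-012871 the other 3 by 0.19 to 0.35.

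**Figure D3:**
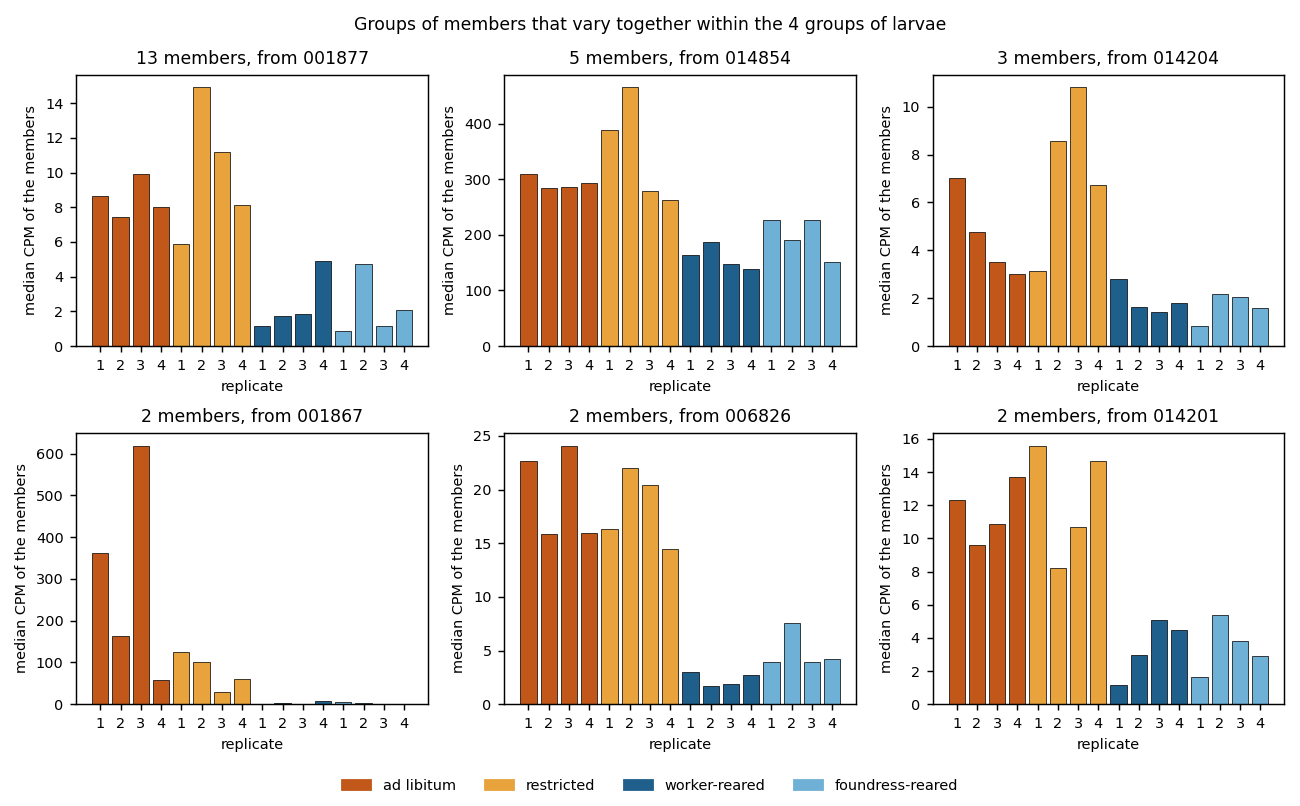
Median CPM of the members in each larva for the 6 groups of members that vary together within the 4 groups of larvae, with bars from 0 and numbers on the horizontal axis giving the replicate. In the group of 13 the bar of restricted replicate 2 stands at 14.9 CPM, and worker-reared replicate 4 (4.9 CPM) and foundress-reared replicate 2 (4.72 CPM) stand above the other field larvae.

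The diet comparison asked whether the members differ between ad libitum and restricted larvae within the laboratory. All 80 passed the filter on low counts, 12 of them without 10 counts in 4 field libraries. Over all 36337 transcripts edgeR's quasi-likelihood test called 0 at an adjusted p under 0.05 in either direction (0%), and 0 of the 80 members. limma voom called 0 members and DESeq2 called 1, PmetTSAr1.1-010371, among 485 transcripts. At an unadjusted p under 0.05, 3 members were higher in ad libitum larvae (background 6.02%) and 7 were lower (background 7.6%). These shares of members, 3.75% and 8.75%, are near the background. Levels did not overlap between the diets in 1 member that was higher (background 2.61%) and 2 that were lower (background 2.68%). The fitted sign was lower with ad libitum food in 54 of 80 members, against 50.1% of all transcripts, and higher in 26, against 49.9%, with a median log2 fold change of -0.154 over members against -0.001 over all. Without restricted replicate 4 these medians were -0.261 and 0.027. Counting each group of co-varying members once, 35 of 59 had the lower sign, with restricted replicate 4 included. With 1 laboratory library left out at a time, 46 to 58 members had the lower sign, the fewest without restricted replicate 2. Among these omissions, the share over all transcripts is given only for restricted replicate 4, below.

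PmetTSAr1.1-010371 had the smallest p of the members with a higher level in ad libitum larvae. It measured 0.891, 1.61, 1.43 and 1.51 CPM there and 0.548, 0.887, 0.476 and 0.703 CPM in restricted larvae, so the diets did not overlap. The difference was 1.06 ± 0.267 (log2, SE), with an edgeR adjusted p of 0.191. PmetTSAr1.1-009820 had 3.86, 5.32, 4.89 and 6.7 CPM in ad libitum larvae against 1.79, 5.03, 1.64 and 2.67 CPM in restricted larvae, where restricted replicate 2 lay inside the ad libitum range, a difference of 0.9 ± 0.335 (edgeR adjusted p of 0.28). In the other direction PmetTSAr1.1-014334 had 14.8, 13.4, 13.2 and 16.3 CPM in ad libitum larvae and 22.7, 22.1, 21.1 and 15.4 CPM in restricted larvae, a difference of -0.5 ± 0.144 (edgeR adjusted p of 0.204). PmetTSAr1.1-014340, close to it in the identifier order, had 10.5, 9.3, 10.7 and 12.2 CPM in ad libitum larvae against 17.8, 15.7, 16.5 and 12.1 CPM in restricted larvae, a difference of -0.54 ± 0.184 (edgeR adjusted p of 0.249). In both, restricted replicate 4 was the restricted larva that lay among the ad libitum larvae. The members with every ad libitum larva below every restricted larva, named after their values were seen, were PmetTSAr1.1-005433, at 9.01, 8.2, 8.98 and 9.6 CPM in ad libitum and 10.8, 14.5, 17.7 and 9.63 CPM in restricted larvae, and PmetTSAr1.1-028198, at 0.618 to 0.792 CPM in ad libitum and 0.803 to 1.11 CPM in restricted larvae.

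Without restricted replicate 4, 1 member was called higher in ad libitum larvae (background 4.46%) and 4 were called lower (background 3.66%), among 37128 transcripts tested. The sign was then higher in 24 members (background 51.7%) and lower in 56 (background 48.3%). The member called higher was PmetTSAr1.1-010371, at 1.1 ± 0.3 on the log2 scale (edgeR adjusted p of 0.0385). Of those called lower, PmetTSAr1.1-014334 stood at -0.6 ± 0.13 (edgeR adjusted p of 0.0145) and PmetTSAr1.1-014340 at -0.64 ± 0.184 (edgeR adjusted p of 0.0476). The 2 others called lower, named for that call, were PmetTSAr1.1-020034 at -0.83 ± 0.221 (edgeR adjusted p of 0.0356) and PmetTSAr1.1-005433 at -0.68 ± 0.193 (edgeR adjusted p of 0.0457). The members' shares, 1.25% and 5%, were under and slightly over the background. Restricted replicate 4 was singled out because its omission changed this same contrast, and no other single omission called any transcript between the diets. The adjusted p-values of this fit therefore describe the omission and give no independent support for a diet difference.

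The pair that spread most widely in the laboratory also had the largest fitted diet differences of the 80. PmetTSAr1.1-001868 stood at 1.99 ± 0.856 (edgeR adjusted p of 0.338) and PmetTSAr1.1-001867 at 1.88 ± 0.889 (edgeR adjusted p of 0.37). Ad libitum replicate 4, at 56.1 CPM of PmetTSAr1.1-001868, lay within the restricted range of 26.2 to 117 CPM. For the group of 13, diet log2 fold changes ran from -0.64 to -0.05 with edgeR adjusted p of 0.54 or above, and for the 5 abundant members from -0.25 to -0.21 with edgeR adjusted p of 0.567 or above. Without restricted replicate 4 the group of 13 ran from -0.73 to -0.22 (edgeR adjusted p of 0.345 or above) and the 5 abundant members from -0.36 to -0.3 (edgeR adjusted p of 0.224 or above). In the same fit PmetTSAr1.1-001868 stood at 1.89 ± 0.989 (edgeR adjusted p of 0.24), PmetTSAr1.1-001867 at 1.78 ± 1.03 (edgeR adjusted p of 0.287) and PmetTSAr1.1-009820 at 0.89 ± 0.376 (edgeR adjusted p of 0.15).

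The season comparison asked whether the members differ between worker-reared and foundress-reared larvae. Of all 36337 transcripts edgeR called 9 higher in worker-reared larvae (0.0248%) and 7 lower (0.0193%), and none of the 80 members. limma voom called 0 members and DESeq2 called 2, PmetTSAr1.1-006826 and PmetTSAr1.1-006827, among 979 transcripts. At an unadjusted p under 0.05, 1 member was higher (background 7.42%) and 3 were lower (background 8.65%), or 1.25% and 3.75% of the members. The 12 members without 10 counts in 4 field libraries passed the filter through the laboratory larvae and had little depth for a season difference. Over the other 68 members the shares were 1.47% and 4.41%, against 7.49% and 8.78% of the 32785 transcripts that met the same minimum, which was added after the data were seen. Levels did not overlap between the seasons in 1 member that was higher (background 5.01%) and 2 that were lower (background 4.4%). Over the 68 members these shares were 1.47% and 2.94%, against 5.28% and 4.6% of the 32785 transcripts. The sign was higher in 44 members (background 50.1%) and lower in 36 (background 49.9%). These sign counts include the 12 members with little depth in the field, whose season sign rests on few counts. The absolute season log2 fold change had a median of 0.215 over members and 0.318 over all transcripts, where the rule favours members that are steady among field larvae. With the same minimum on field counts the medians were 0.195 over members and 0.301 over all. For diet, with no such minimum, the median absolute log2 fold changes were 0.314 over the 80 members and 0.314 over all 36337 transcripts.

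PmetTSAr1.1-006826 and PmetTSAr1.1-006827 were the 2 members whose levels did not overlap in the lower direction. PmetTSAr1.1-006826 had 2.78, 1.73, 1.71 and 2.34 CPM in worker-reared larvae and 3.73, 7.06, 3.66 and 3.27 CPM in foundress-reared larvae, a log2 difference of -1.05 ± 0.259 (edgeR adjusted p of 0.112). PmetTSAr1.1-006827 had 3.15, 1.71, 2.15 and 3.14 CPM in worker-reared larvae against 4.07, 8.09, 4.16 and 5.14 CPM in foundress-reared larvae, a difference of -1.08 ± 0.269 (edgeR adjusted p of 0.112). Foundress-reared replicate 2 was the highest field larva for both, and in the laboratory both had a wide margin, with lowest levels of 16 and 13 CPM. Their levels less the group mean correlated at 0.913, so their season differences are not independent of each other.

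Higher values in worker-reared larvae were led by PmetTSAr1.1-010279. It had 2.98, 4.32, 2.03 and 3.91 CPM in worker-reared larvae and 1.81, 2.38, 1.24 and 1.68 CPM in foundress-reared larvae, which overlapped, a difference of 0.9 ± 0.297 (edgeR adjusted p of 0.18). PmetTSAr1.1-013357 had 8.62, 8.42, 8.16 and 7.9 CPM in worker-reared larvae against 8.53, 6.4, 6.02 and 6.55 CPM in foundress-reared larvae, a difference of 0.27 ± 0.129 (edgeR adjusted p of 0.323). After their values were seen, 2 more members are named. PmetTSAr1.1-022040 was the one with every worker-reared larva above every foundress-reared larva, at 6.5, 6.29, 6.06 and 6.14 CPM in worker-reared and 4.9, 5.31, 5.72 and 5.46 CPM in foundress-reared larvae (edgeR adjusted p of 0.467). PmetTSAr1.1-016974 was the remaining member with an unadjusted p under 0.05, at -0.32 ± 0.126 (edgeR adjusted p of 0.247). For the group of 13, season log2 fold changes ran from -0.24 to 0.41 with adjusted p of 0.618 or above.

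**Figure D4:**
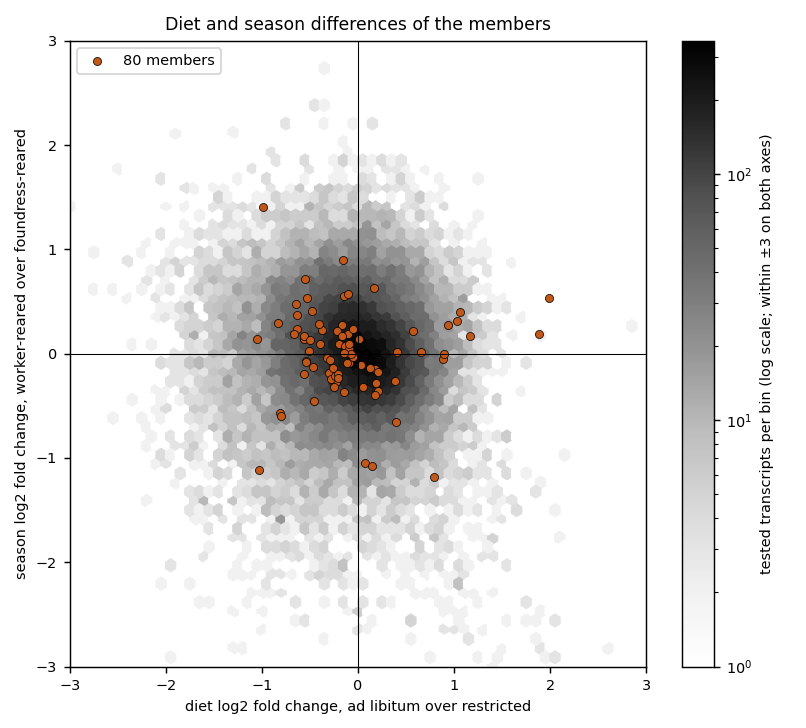
Diet log2 fold change (ad libitum over restricted, horizontal) against season log2 fold change (worker-reared over foundress-reared, vertical) for the 80 members, drawn over the density of all tested transcripts within the range shown. The members lie around the centre of the density, with a median of -0.154 for diet and 0.016 for season, and the 2 points farthest to the right are PmetTSAr1.1-001868 (1.99) and PmetTSAr1.1-001867 (1.88).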

How the data were processed

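The authors deposited whole-number counts for 74517 assembled transcripts in 16 libraries, 1 per larval head. The submitters' processing notes list Bowtie2 and eXpress without versions. For the assembly, strand, filters and counting of shared reads, the steps taken were not given in the sources used here. The table was analysed in R 4.3.3. TMM factors from transcripts passing filterByExpr scaled the totals, and CPM and the fits used the same factors. Within the whole table, 36337 transcripts were tested with edgeR 4.0.16 (robust quasi-likelihood F test, one mean per group, 16 libraries, Benjamini-Hochberg over all tested). A call is an adjusted p under 0.05, and the SE of a fold change is its absolute log2 value over the square root of F. limma 3.58.1 (voom) and DESeq2 1.42.0 were alternatives. The scripts were tested on simulated data. Replicate numbers follow the order of the records and pair no larvae. No 2 libraries agreed within sampling noise (chi-square per degree of freedom at least 38).

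The members, lists and tests were chosen with earlier results of these data known. Transcripts were named by a rule (widest gap, highest level, smallest p in each direction of each contrast, runs of identifiers, the edge of the set, near absence in the field, widest spread), and others are marked as chosen after their values were seen or belong to counted groups.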

Additional observations from a re-analysis of the deposited data

Results flagged for a closer look

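Dixon's criterion was applied to 79 sets of 4 larvae and picked 5. The sets came from the transcripts named by rule and from the summed member level. Chance alone would give about 4 for normally distributed values in transcripts not chosen by their values. Here CPM was not transformed, several transcripts were named for their values, and members that vary together are not independent. The number is therefore only a guide. PmetTSAr1.1-014334 reached 12.9 CPM in foundress-reared replicate 3, while the other foundress-reared larvae lay at 9.62 to 10 CPM. The same larva was apart for PmetTSAr1.1-014340, at 7.67 CPM beside 4.85 to 5.28 CPM. For PmetTSAr1.1-006826, foundress-reared replicate 2 stood at 7.06 CPM and the others at 3.27 to 3.73 CPM. PmetTSAr1.1-001867 was at 8.8 CPM in worker-reared replicate 4 and at 0.92 to 2.15 CPM in the other worker-reared larvae. The single field count of PmetTSAr1.1-033265, 0.0259 CPM in worker-reared replicate 2, was the last, and a single count beside libraries without any always meets the criterion.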

How the results depend on the processing

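The rule kept 47 of the 80 members with unscaled library totals, and 65 to 79 when 1 library was left out (65 without ad libitum replicate 3 or restricted replicate 3). The median laboratory over field log2 difference was 1.65 with a pseudocount of 0.1 and 0.81 with 2, against 1.305 at 0.5, and 1.21 to 1.39 without 1 library. Calls between the diets among members were 0 to 5 without 1 library (5 without restricted replicate 4) and 1 with DESeq2 (PmetTSAr1.1-010371). Calls between the seasons were 0 in each omission and 2 with DESeq2 (PmetTSAr1.1-006826 and PmetTSAr1.1-006827), beside 485 and 979 DESeq2 calls in the whole table, against 0 and 16 with edgeR. limma voom, other scalings, no filter and the 8 larvae of a pair alone called 0 members, though the field pair alone tested only 67. Members at an unadjusted p under 0.05 between diets numbered 10 in all, 5 without restricted replicate 3, 6 with unscaled totals and 16 with limma voom, and between seasons 4 in all, 7 without foundress-reared replicate 4 and 8 with unscaled totals. Members that did not overlap between seasons numbered 6 with unscaled totals, against 3. The matching shares over all transcripts were not computed in these other settings. Whether these changes are particular to the members was therefore not tested. Low counts limit the season comparison for members near 0 in the field. No paired analysis was possible because the labels give sample codes and no replicate numbers, and the codes of the worker-reared and foundress-reared larvae match in number for only 1 larva of each group.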
